A study of Arabidopsis thaliana with 19 samples.

Results

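The step from 4D 16H to 5D is the passage from 4 days and 16 h of age to 5 days of age in a time course of Arabidopsis thaliana root tip cells, and it was described here across genes and functions. Its members are 6 libraries of the 19 in the series, 3 at 5D and 3 at 4D 16H, and they were chosen by their age alone. Expression is given in FPKM, reads scaled to transcript length and library size, and 18087 loci that averaged 1 FPKM or more across the series were tested. In every library the seedlings carried PET111:GFP, a fluorescent reporter of the mature columella, the gravity-sensing part of the root cap. Seedlings were grown at 22 °C on Murashige and Skoog medium with 1% sucrose under 16 h of light and 8 h of dark, root tips were cut and their cell walls digested, and the cells without GFP were collected by sorting. The study used these cells as a population enriched in stem cells, but all tip cells except the mature columella could pass the sort. The labels give no difference between the 2 groups other than age, and no batch. The study calls the libraries of a time point biological replicates, each from its own batch of seed, and collected all of them at the same hour of the day.

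The root tip grows from a small stem cell niche around the quiescent centre, and its daughters pass through a zone of rapid division before they elongate and differentiate. Dividing plant cells must copy their DNA, wrap it in new histones and build ribosomes, and genes for these tasks are known to be expressed together in meristems. A ribosome needs both its protein subunits and a nucleolar machinery that cuts, modifies and folds the ribosomal RNA. More mature root cells instead express genes of specialised metabolism, transport and barrier formation, such as the root triterpene gene clusters and the Casparian strip of the endodermis. In bulk samples such as these, fewer cells of a type and less RNA per cell cannot be told apart.

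Depth, as estimated from the steps between low FPKM values, was about 12.8 to 38.2 M reads (M, 1e6) in the 5D libraries and 11.5 to 22.4 M reads in the 4D 16H libraries. In a principal component analysis of the 6 libraries the first component held 42% of the variance and separated 5D, with scores of -26.4 to -24.5, from 4D 16H, with scores of 19.2 to 29.4. The second component held 23% and spread the 4D 16H libraries, from -29.1 in replicate 1 to 34.8 in replicate 3, while the 5D libraries lay between -3.8 and 7. In the wider series 5D 16H replicate 2 stood apart, with an estimated 1.2 M reads and 20.8% of its total FPKM at loci annotated with a ribosomal protein product, against 4.03% to 7% in the other 18 libraries. It is not part of the step, but it enters the shared estimate of the spread.

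Between 5D and 4D 16H, 1935 loci passed the threshold, an adjusted p under 0.05 in limma, and they made up 10.7% of the loci tested. Of these, 643 were higher at 5D (3.56% of the loci tested) and 1292 were lower (7.14%), so that 33.2% of the calls were higher. The median size of the change among called loci was 0.63 on the log2 scale, and 141 loci, 58 higher and 83 lower, changed at least 2-fold. The 3 libraries of each group did not overlap at 36.2% of the loci tested, and at 1918 of the 1935 called loci. For a called gene, libraries that do not overlap thus add little to the call. The median log2 fold change over all loci tested was -0.07. Under quantile normalization, where that median was 0.01, 2172 loci were called and 48.7% of them were higher, and under upper quartile scaling 2036 were called and 42.6% were higher. Without 5D 16H replicate 2 in the fit, an alternative added after seeing the data, 2633 loci were called, among them all 1935, and 31.9% of them were higher.

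**Figure D1:**
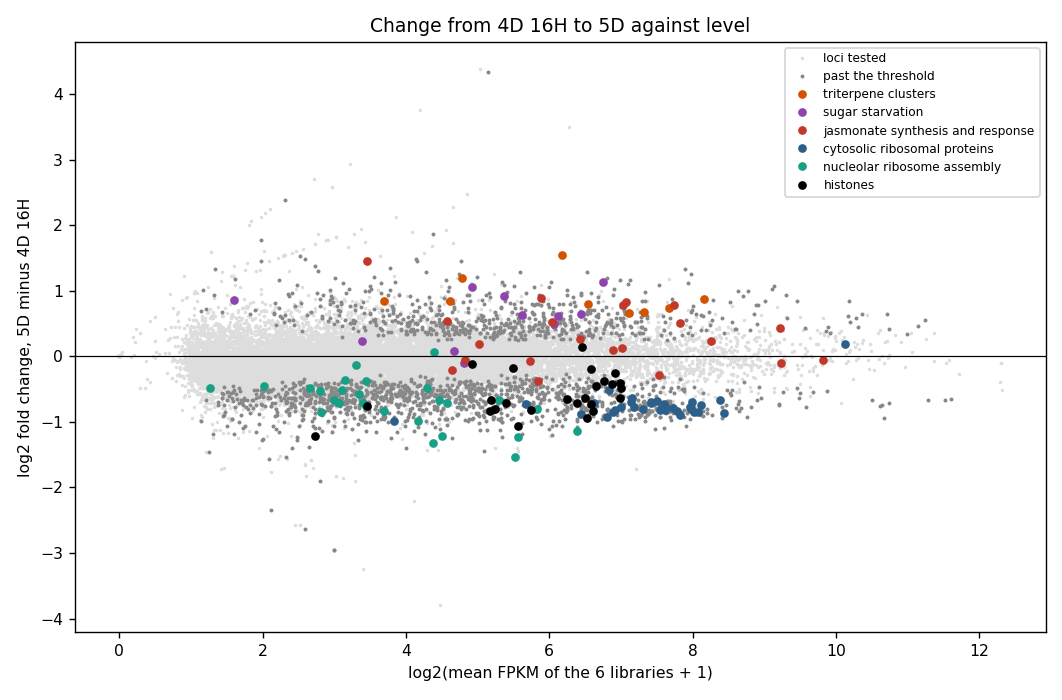
Log2 fold change of 5D over 4D 16H for the 18087 loci tested, against the log2 of their mean FPKM in the 6 libraries plus 1. Each point is a locus, darker points passed the threshold, and coloured points are members of 6 gene lists, where the ribosomal, nucleolar and histone genes lie mostly below 0 and the triterpene and sugar starvation genes mostly above it.

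The 12 loci with the largest increases at 5D, among called loci whose libraries did not overlap and whose transcript is at least 300 nucleotides long, included 2 genes of the quiescent centre, AGL42 and WOX5, which are described with the stem cell niche below. DR4 (AT1G73330), annotated as drought-repressed, had 26.1, 23.8 and 43.4 FPKM at 5D, against 12.9, 9.36 and 3.22 FPKM at 4D 16H (log2 fold change 1.87, SE 0.37, adjusted p = 0.00744). MRN1 (AT5G42600), which encodes marneral synthase, had 87.8, 91.4 and 134 FPKM at 5D, against 53.5, 43.7 and 17.3 FPKM at 4D 16H (log2 fold change 1.54, SE 0.28, adjusted p = 0.00561). In both genes 4D 16H replicate 3 was the lowest library and 5D replicate 3 the highest. DIN11 (AT3G49620), an oxygenase gene named for its induction in darkness, had 4.54, 4.25 and 5.41 FPKM at 5D, against 1.43, 1.37 and 0.543 FPKM at 4D 16H (log2 fold change 1.46, SE 0.22, adjusted p = 0.00405). NUDT8 (AT5G47240), a nudix hydrolase gene, had 28.7, 23.8 and 21.6 FPKM at 5D, against 4.65, 9.56 and 12.6 FPKM at 4D 16H (log2 fold change 1.45, SE 0.29, adjusted p = 0.00798), with 4D 16H replicate 1 the lowest. The others were HSP90-1 and JAZ7, taken up with their lists, the non-coding AT3G27884, the latex-protein-like MLP329 (AT2G01530), the transcription factor gene NAC047 (AT3G04070) and GA20OX5 (AT1G44090), annotated as a gibberellin 20-oxidase, with log2 fold changes of 1.35 to 1.49. The first locus past the 12 had a log2 fold change of 1.33. The rule left out 2 called loci with shorter transcripts, both higher at 5D, with log2 fold changes of 2.39 and 4.34. The groups of the locus at 4.34 also overlapped.

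The 12 loci with the largest decreases at 5D, chosen by the same rule, were led by AT3G15534, of unknown function, listed at 0 in 5D replicates 1 and 2 and at 0.811 FPKM in replicate 3, against 6.92, 1.54 and 10.8 FPKM at 4D 16H (adjusted p = 0.0406). It did not pass under 8 of the 15 alternatives it could be fitted in, among them without 5D replicate 1. The rule left out 3 called loci with larger decreases, of -2.96 to -2.64 on the log2 scale, because their groups overlapped. BHLH39 (AT3G56980, chr3:21086390-21087710 in TAIR10.1), a basic helix-loop-helix factor that works with FIT in the iron deficiency response, had 1.08, 2.91 and 2.05 FPKM at 5D, against 10.2, 8.99 and 10.4 FPKM at 4D 16H (log2 fold change -1.90, SE 0.24, adjusted p = 0.00328). Its 3 libraries at 4D 16H lay close together and all were more than 3 times as high as the highest at 5D. Also among the 12 were AT1G34500 and AT1G34490, related loci on chromosome 1 annotated as membrane-bound O-acyl transferases, with log2 fold changes of -1.57 and -1.38. FIB2 and CBF5, both of the nucleolar list, were in it too. AT1G56680, a chitinase family gene, had 19.4, 15.5 and 15.6 FPKM at 5D, against 42.5, 37.5 and 67 FPKM at 4D 16H (log2 fold change -1.45, SE 0.22, adjusted p = 0.00404). ELIP2 (AT4G14690), an early light-induced gene of the chlorophyll-binding family, had 7.65, 8.7 and 7.07 FPKM at 5D, against 22.5, 21.5 and 22.6 FPKM at 4D 16H (log2 fold change -1.40, SE 0.33, adjusted p = 0.0162). The remaining 4, AT5G61412, AT4G37290, AT5G50740 and AT5G05250, lay below 11 FPKM in all 6 libraries, with log2 fold changes between -1.53 and -1.28.

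In the stem cell niche, regulators did not move together. Of 25 genes listed, 19 were tested, 2 rose (10.5%), 3 fell (15.8%) and 14 did not pass, with a median log2 fold change of -0.16. The shares over all loci tested were 3.56% and 7.14%. AGL42 (AT5G62165, chr5:24964646-24968607 in TAIR10.1), a MADS-box factor used as a marker of the quiescent centre, had 5.1, 4.26 and 5.76 FPKM at 5D, against 1.08, 1.19 and 0.203 FPKM at 4D 16H (log2 fold change 1.77, SE 0.23, adjusted p = 0.00328). WOX5 (AT3G11260, chr3:3527280-3528440), a homeobox factor of the quiescent centre that keeps the columella stem cells undifferentiated, had 6.19, 7.22 and 9.06 FPKM at 5D, against 2.4, 2.5 and 1.09 FPKM at 4D 16H (log2 fold change 1.53, SE 0.27, adjusted p = 0.00561). For both genes 4D 16H replicate 3 was the lowest library, and the calls held under all alternatives in which they could be fitted. The estimated reads behind these low values were 3.28 to 309 for AGL42 and 10.8 to 295 for WOX5.

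PLT1 (AT3G20840) and PLT2 (AT1G51190), AP2-type factors whose protein gradient sets the size of the meristem, fell. PLT2 had 3.34, 3.76 and 3.61 FPKM at 5D, against 6.54, 6.05 and 5.75 FPKM at 4D 16H (log2 fold change -0.64, SE 0.14, adjusted p = 0.0124). PLT1 had 4.57, 3.87 and 3.57 FPKM at 5D, against 7.56, 7.45 and 9.23 FPKM at 4D 16H (log2 fold change -0.86, SE 0.22, adjusted p = 0.0223). RITF1 (AT2G12646), a PLATZ-type factor that acts downstream of root growth factor peptides, had 3.63, 3.18 and 3.05 FPKM at 5D, against 6.71, 8.14 and 7.78 FPKM at 4D 16H (log2 fold change -0.99, SE 0.27, adjusted p = 0.0277). The groups did not overlap for any of the 3 genes, as at nearly all called loci. The call of PLT2 held in all alternatives, that of PLT1 was lost in 4 of 16 and that of RITF1 in 7 of 16, in fits that left out a library and, for RITF1, also without a filter on low values. PLT3 (AT5G10510) had a log2 fold change of -0.28 (adjusted p = 0.0986) and RGF3 (AT2G04025), a root growth factor peptide gene, -0.63 (adjusted p = 0.0897). Neither passed the threshold. The ground tissue factors SHR and SCR, which also help to specify the quiescent centre, had log2 fold changes of -0.35 and -0.14 and did not pass.

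TCX2 (AT4G14770), the cysteine-rich CXC-domain factor on which the study centred, had 2.1, 1.77 and 1.88 FPKM at 5D, against 2.33, 2.84 and 3.98 FPKM at 4D 16H. All 5D libraries lay below all 4D 16H libraries, as they did at 24% of all loci tested. The difference did not pass the threshold (log2 fold change -0.45, SE 0.19, adjusted p = 0.132), and about 77.7 to 209 reads stood behind each value. Of the 9 genes of the study's model around TCX2, 6 were tested, and WOX5 and AGL42 were the 2 that passed. CRF2, a cytokinin response factor, had 7.8, 8.2 and 8.42 FPKM at 5D, against 10.6, 15 and 11.4 FPKM at 4D 16H (log2 fold change -0.53, adjusted p = 0.0581), again with no overlap. The guard cell factor FLP had 2.7, 2.55 and 2.7 FPKM at 5D, against 2.7, 4.55 and 5.1 FPKM at 4D 16H (log2 fold change -0.46, adjusted p = 0.19). AT2G47680, a zinc finger helicase gene, had a log2 fold change of -0.34 (adjusted p = 0.292). Under the alternatives TCX2 passed in 1 of 15, CRF2 in 2 of 16, FLP in 1 of 15 and AT2G47680 in 0 of 15.

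**Figure D2:**
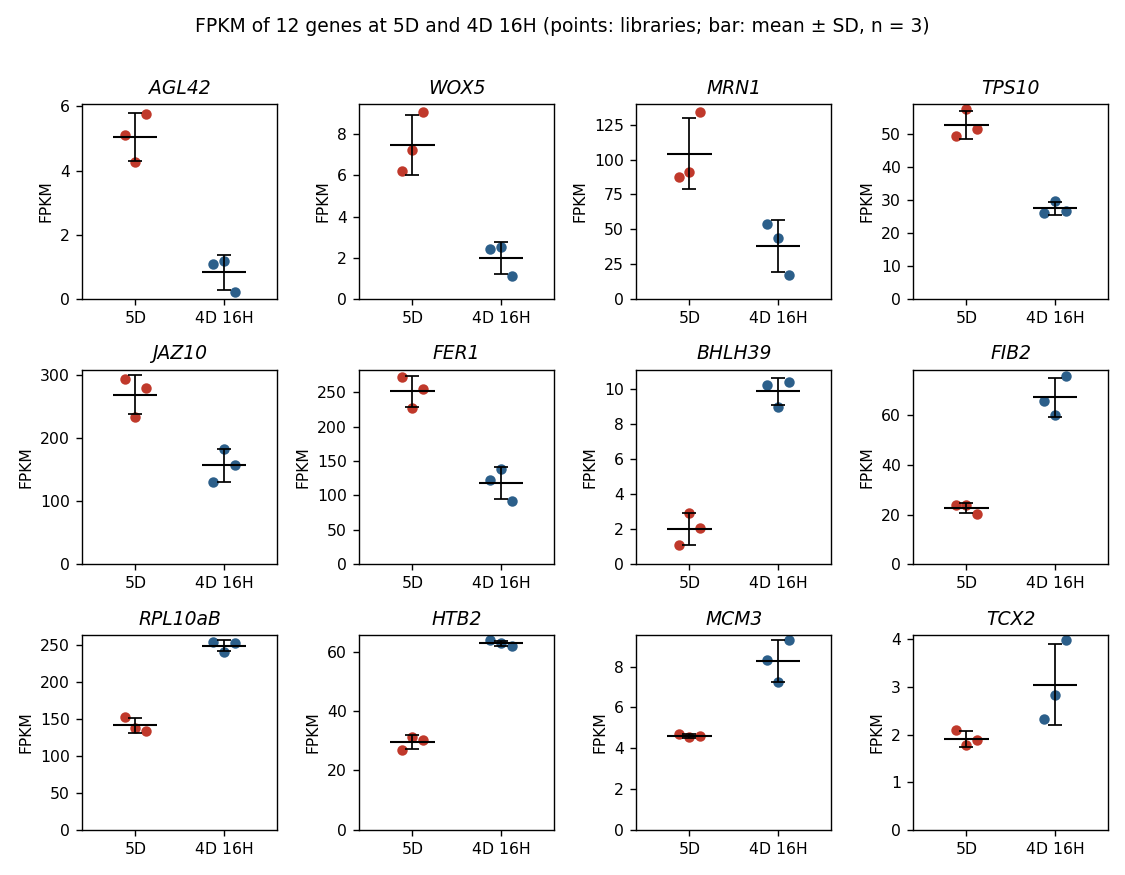
FPKM of 12 genes in the 3 libraries at 5D (left, red) and the 3 at 4D 16H (right, blue), with a bar at the mean and error bars of 1 SD (n = 3 each). The top row and the first 2 genes of the middle row were higher at 5D in every library, and the other 6 genes were lower at 5D in every library, although TCX2 did not pass the threshold.

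Nearly all of the listed genes for cytosolic ribosomal proteins fell. Of 34 cytosolic ribosomal protein genes listed, all were tested, 33 fell and 0 rose, with a median log2 fold change of -0.78. The mean log2(FPKM + 1) of the list was 7.05, 6.98 and 6.93 at 5D, against 7.79, 7.64 and 7.79 at 4D 16H. RPL10aB (AT2G27530), a large subunit gene, had 153, 137 and 133 FPKM at 5D, against 254, 239.7 and 253 FPKM at 4D 16H (log2 fold change -0.82, SE 0.14, adjusted p = 0.00506). RPS6B (AT5G10360), whose small subunit protein is a target of TOR kinase signalling, had 143, 139 and 138 FPKM at 5D, against 253, 231 and 235 FPKM at 4D 16H (log2 fold change -0.77, SE 0.15, adjusted p = 0.00646). In each case the 3 libraries of a group lay within a narrow band and the bands were far apart. The same held for RPL23aB (AT3G55280), with a mean of 83.7 ± 0.985 FPKM at 5D, against 152 ± 4.99 FPKM at 4D 16H (SD, n = 3 each; log2 fold change -0.85, adjusted p = 0.00561). RPS15aA (AT1G07770) had a mean of 129 ± 7.11 FPKM at 5D, against 210.5 ± 10.6 FPKM at 4D 16H (SD, n = 3 each; log2 fold change -0.70, adjusted p = 0.0059). RPS18A (AT1G22780; log2 fold change -0.82, adjusted p = 0.00614) and RPL28A (AT2G19730; log2 fold change -0.90, adjusted p = 0.00629) fell by similar amounts. The exception was RPL10C (AT1G66580), with a mean of 1181 ± 96.3 FPKM at 5D, against 1058 ± 229 FPKM at 4D 16H (SD, n = 3 each; log2 fold change 0.18, adjusted p = 0.519). The count of called members was 27 to 32 when 1 of the 6 libraries was left out, and the median of the list stayed between -0.83 and -0.70 under those fits and under both scalings.

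Over the whole annotation, 354 tested loci had a product described as ribosomal, including plastid and mitochondrial types, a grouping made after values were seen. Of these, 220 fell and 3 rose, with a median of -0.70. They took up 4.94%, 4.25% and 4.03% of the total FPKM in the 5D libraries, against 7%, 5.76% and 6.28% in the 4D 16H libraries. Ribosomal protein genes exist as families of close copies, and how reads that match several copies were assigned is not given in the sources used here, so values of single copies are uncertain.

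Most of the listed nucleolar genes of ribosome assembly fell too. Of 27 tested, 19 fell, 0 rose and 8 did not pass, with a median log2 fold change of -0.66. The largest changes were in the proteins of small nucleolar RNA particles, which modify ribosomal RNA. FIB2 (AT4G25630, chr4:13074090-13076432 in TAIR10.1), a fibrillarin that adds methyl groups, had 23.8, 23.9 and 20.197 FPKM at 5D, against 66, 60.03 and 75.7 FPKM at 4D 16H (log2 fold change -1.53, SE 0.25, adjusted p = 0.00497). CBF5 (AT3G57150), also named NAP57, the enzyme that makes pseudouridine, had 10.6, 12.5 and 9.24 FPKM at 5D, against 26.7, 25.3 and 34.4 FPKM at 4D 16H (log2 fold change -1.33, SE 0.22, adjusted p = 0.00497). Both were less than 0.5 times as high at 5D as in any 4D 16H library, and their calls held under all alternatives. NOP56 (AT1G56110) and NOP58 (AT5G27120), core partners of fibrillarin, had a mean of 27.1 ± 1.24 FPKM at 5D, against 65.1 ± 9.05 FPKM at 4D 16H and a mean of 12.7 ± 1.86 FPKM at 5D, against 30.6 ± 4.8 FPKM at 4D 16H (SD, n = 3 each), with log2 fold changes of -1.23 and -1.21 and adjusted p of 0.00506 and 0.00497. NUC1 (AT1G48920), a nucleolin that acts on the ribosomal RNA genes, had 51.9, 53.7 and 47.3 FPKM at 5D, against 109, 103 and 131 FPKM at 4D 16H (log2 fold change -1.14, SE 0.19, adjusted p = 0.00497). BRX1-2 (AT1G52930), a large subunit assembly factor gene, had a mean of 11 ± 0.543 FPKM at 5D, against 22.8 ± 1.3 FPKM at 4D 16H (SD, n = 3 each; log2 fold change -0.98, adjusted p = 0.00649). FIB1, a close copy of FIB2, fell as well (log2 fold change -0.80, adjusted p = 0.00962). Each fibrillarin gene overlaps a second annotated locus on its own strand, so that the counting could split their reads. Without 5D replicate 3, 9 members of the list were called, the lowest count with 1 library left out.

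The promoters of these genes are known to carry short motifs linked to growth, the telobox (AAACCCTA) and site II (TGGGCC or TGGGCT). Both were looked for on either strand of the 250 bases before each annotated gene start in the RefSeq genome, TAIR10.1. Of the nucleolar list 18 of 27 windows held site II and 6 of 27 held a telobox, and of the ribosomal protein list 21 of 34 and 6 of 34 did. Over all 18010 tested loci with a window the shares were 22.7% for site II and 3.52% for the telobox. Among loci that fell they were 34.6% and 6.9%, and among loci that rose 14.5% and 1.41%. The windows of 3 small nucleolar particle genes are shown because they hold both motifs, with the motif letters in capitals and the 5′ end first. FIB2 itself held none of these letters in its window.
NOP56 chr1:20986953-20987202, minus strand: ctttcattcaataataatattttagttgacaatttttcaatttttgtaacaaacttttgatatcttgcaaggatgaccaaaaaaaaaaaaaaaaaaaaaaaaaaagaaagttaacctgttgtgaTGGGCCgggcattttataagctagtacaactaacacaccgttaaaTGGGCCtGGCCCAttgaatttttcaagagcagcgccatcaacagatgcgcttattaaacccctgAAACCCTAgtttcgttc
NOP58 chr5:9540611-9540860, plus strand: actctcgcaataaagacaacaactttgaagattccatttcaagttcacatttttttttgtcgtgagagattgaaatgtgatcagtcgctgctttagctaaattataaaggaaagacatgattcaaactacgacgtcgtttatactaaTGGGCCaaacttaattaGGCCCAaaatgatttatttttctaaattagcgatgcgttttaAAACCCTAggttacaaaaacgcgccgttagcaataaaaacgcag
FIB1 chr5:21293897-21294146, plus strand: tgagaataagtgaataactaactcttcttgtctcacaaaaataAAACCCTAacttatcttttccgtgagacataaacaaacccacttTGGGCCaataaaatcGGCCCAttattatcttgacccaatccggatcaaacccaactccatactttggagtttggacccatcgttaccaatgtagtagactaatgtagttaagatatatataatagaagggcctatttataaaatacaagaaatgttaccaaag

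The study predicted a set of genes regulated by TCX2 with a network built from other libraries, those of sorted stem cell types. Of 91 such genes 88 were tested, 65 fell and 0 rose, with a median log2 fold change of -0.73. Of the 88, 43 are in the ribosomal protein list or have a ribosomal product, so the set is in large part a set of ribosomal genes. The count was 47 to 54 with 1 of the 6 libraries left out.

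Among genes for copying DNA, calls were to the lower side. Of 29 replication genes tested, 13 fell and 0 rose, the median was -0.54 and 27 had a lower estimate. The mean log2(FPKM + 1) of the list was 2.36, 2.38 and 2.34 at 5D, against 2.75, 2.80 and 2.91 at 4D 16H. FEN1 (AT5G26680), a nuclease that processes lagging strand fragments, had 5.22, 6.42 and 5.54 FPKM at 5D, against 10.3, 9.31 and 8.67 FPKM at 4D 16H (log2 fold change -0.63, SE 0.11, adjusted p = 0.00533). MCM3 (AT5G46280), a subunit of the replicative helicase, had 4.7, 4.53 and 4.57 FPKM at 5D, against 8.33, 7.23 and 9.28 FPKM at 4D 16H (log2 fold change -0.72, SE 0.17, adjusted p = 0.0138). PCNA1 (AT1G07370), the sliding clamp, had 6.92, 5.69 and 6.06 FPKM at 5D, against 14.6, 11 and 12.2 FPKM at 4D 16H (log2 fold change -0.91, SE 0.25, adjusted p = 0.0293). For all 3 genes the highest 5D library was below the lowest 4D 16H library. CDT1A, which loads the helicase, MCM2 and TSO2, a subunit of ribonucleotide reductase, had log2 fold changes of -0.60, -0.66 and -0.59, with adjusted p between 0.0171 and 0.0316. The number of calls depended on the libraries. With 1 left out 2 to 5 members were called, and under quantile normalization 8 were, while the median stayed between -0.58 and -0.45.

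E2F factors drive replication genes in S phase through motifs such as TTTCCCGC and TTTGGCGC. In the replication list 9 of 29 windows of 250 bases held either motif on either strand, against 0.988% of all tested loci, 1.78% of those that fell and 0.156% of those that rose. Windows of 3 helicase subunit genes are shown with E2F and site II letters in capitals.
MCM2 chr1:16969964-16970213, plus strand: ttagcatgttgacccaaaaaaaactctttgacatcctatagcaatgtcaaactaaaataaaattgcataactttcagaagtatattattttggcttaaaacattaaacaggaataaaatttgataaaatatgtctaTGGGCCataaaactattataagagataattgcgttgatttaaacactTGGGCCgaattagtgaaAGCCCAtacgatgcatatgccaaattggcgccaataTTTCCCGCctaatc
MCM3 chr5:18773707-18773956, minus strand: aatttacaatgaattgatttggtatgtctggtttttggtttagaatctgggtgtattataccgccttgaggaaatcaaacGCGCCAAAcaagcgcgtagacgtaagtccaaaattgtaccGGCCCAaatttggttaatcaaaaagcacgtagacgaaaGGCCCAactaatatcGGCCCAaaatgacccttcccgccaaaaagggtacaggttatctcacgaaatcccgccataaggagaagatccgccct
MCM6 chr5:18010668-18010917, minus strand: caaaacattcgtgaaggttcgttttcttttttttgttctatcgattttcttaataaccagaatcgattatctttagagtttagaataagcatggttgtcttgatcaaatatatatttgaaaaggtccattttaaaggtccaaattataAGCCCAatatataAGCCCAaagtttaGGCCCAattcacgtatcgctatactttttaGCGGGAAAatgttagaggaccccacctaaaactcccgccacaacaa

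Of 15 tested genes of the E2F and CPP list, which also holds DP, RBR1, ALY and MYB3R genes, 0 passed in limma. Of the 15, 3 had an unadjusted p under 0.05, and the median was -0.02. Under quantile normalization 1 passed. E2FA had 4, 4.17 and 3.59 FPKM at 5D, against 5.12, 5.23 and 4.86 FPKM at 4D 16H (log2 fold change -0.30, adjusted p = 0.5). RBR1, the retinoblastoma protein that restrains E2F factors, had 11.5, 12.3 and 11.2 FPKM at 5D, against 13, 13.3 and 14.8 FPKM at 4D 16H (log2 fold change -0.21, adjusted p = 0.19). For E2FA and RBR1 the 5D libraries lay just below the 4D 16H libraries. All 5D libraries were below all 4D 16H libraries for 4 of the 15 genes, beside 24% of all loci tested. ALY1, a relative of the DREAM complex subunit LIN9, had a mean of 9.87 ± 0.92 FPKM at 5D, against 6.79 ± 0.696 FPKM at 4D 16H (SD, n = 3 each; log2 fold change 0.48, adjusted p = 0.0677).

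Of 25 core histone genes tested, 18 fell and 0 rose, with a median log2 fold change of -0.65. HTB2 (AT5G22880), an H2B gene, had 26.9, 31.4 and 30.2 FPKM at 5D, against 63.8, 62.8 and 62.1 FPKM at 4D 16H (log2 fold change -1.07, SE 0.18, adjusted p = 0.00506), and the 3 libraries of each group lay close together. An H4 gene, AT5G59970, had 67.5, 59.4 and 57 FPKM at 5D, against 159, 98.8 and 105 FPKM at 4D 16H (log2 fold change -0.94, SE 0.18, adjusted p = 0.00696), with 4D 16H replicate 1 above the other libraries. An H3.1 gene, AT5G10390, had 3.07, 3.26 and 2.56 FPKM at 5D, against 10.1, 7.11 and 7.68 FPKM at 4D 16H (log2 fold change -1.22, SE 0.26, adjusted p = 0.00905). The H2A gene HTA6 (AT5G59870) had 75.3, 65.5 and 64.9 FPKM at 5D, against 134, 108 and 129 FPKM at 4D 16H (log2 fold change -0.84, SE 0.17, adjusted p = 0.0074). Other members that fell included HTA2 (log2 fold change -0.66, adjusted p = 0.00969) and HTB1 (log2 fold change -0.80, adjusted p = 0.0106). Members of all 4 core families were among the 18, and 7, such as H4a (AT1G07660; log2 fold change -0.12, adjusted p = 0.678) and HTA1 (log2 fold change -0.18, adjusted p = 0.201), did not pass. With 1 library left out, 7 to 12 members were called, fewest without 5D replicate 2 or 3. Histone genes are near-identical copies, so the split of reads between them is uncertain.

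Of 14 genes that maintain DNA methylation or assemble chromatin, 4 fell (28.6%, beside 7.14% of all loci tested) and 0 rose (median -0.47). VIM1 (AT1G57820), which brings the maintenance methyltransferase to newly copied DNA, had 5.91, 6.15 and 6.55 FPKM at 5D, against 10.7, 9.56 and 11.5 FPKM at 4D 16H (log2 fold change -0.68, SE 0.15, adjusted p = 0.00969). That methyltransferase, MET1 (AT5G49160), had 4.1, 4.71 and 3.84 FPKM at 5D, against 6.72, 5.51 and 6.95 FPKM at 4D 16H (log2 fold change -0.50, SE 0.14, adjusted p = 0.0313). FAS2, a subunit of chromatin assembly factor 1 (log2 fold change -0.56, adjusted p = 0.0299), and the methyltransferase CMT2 (log2 fold change -0.50, adjusted p = 0.0453) fell too. The groups did not overlap for any of these, but under quantile normalization 1 member was called lower and 1 higher, and with 1 library left out 1 to 2 were called lower. VIM2 went the other way, with a mean of 6.38 ± 1.52 FPKM at 5D, against 3.08 ± 0.672 FPKM at 4D 16H (SD, n = 3 each; log2 fold change 0.85, adjusted p = 0.063), and did not pass.

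Of 27 genes of mitosis and cytokinesis tested, 4 fell (14.8%, beside 7.14% of all loci tested) and 0 rose. Of the 27, 25 had a lower estimate, and the median was -0.28. CDC20-2 (AT4G33260) and CDC20-1 (AT4G33270), neighbouring genes for activators of the anaphase-promoting complex, fell. CDC20-2 had 3.21, 2.59 and 2.79 FPKM at 5D, against 6.32, 4.54 and 6.01 FPKM at 4D 16H (log2 fold change -0.77, SE 0.16, adjusted p = 0.00881). CDC20-1 had 7.02, 5.99 and 6.51 FPKM at 5D, against 11.6, 9.05 and 12.2 FPKM at 4D 16H (log2 fold change -0.67, SE 0.16, adjusted p = 0.0189). The groups were clear of each other in both genes. The kinase gene AUR1 (log2 fold change -0.63, adjusted p = 0.0248) and the cyclin CYCB1;2 (log2 fold change -0.52, adjusted p = 0.0366) fell. KNOLLE, the syntaxin of the cell plate, had a mean of 12 ± 0.734 FPKM at 5D, against 17.2 ± 1.29 FPKM at 4D 16H (SD, n = 3 each; log2 fold change -0.48, adjusted p = 0.0538). CDKB2;1 had a log2 fold change of -0.29 (adjusted p = 0.259), and neither passed. With 1 library left out 1 to 2 of the 4 were called. Whether replication and mitosis lists differed from each other was not tested.

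**Figure D3:**
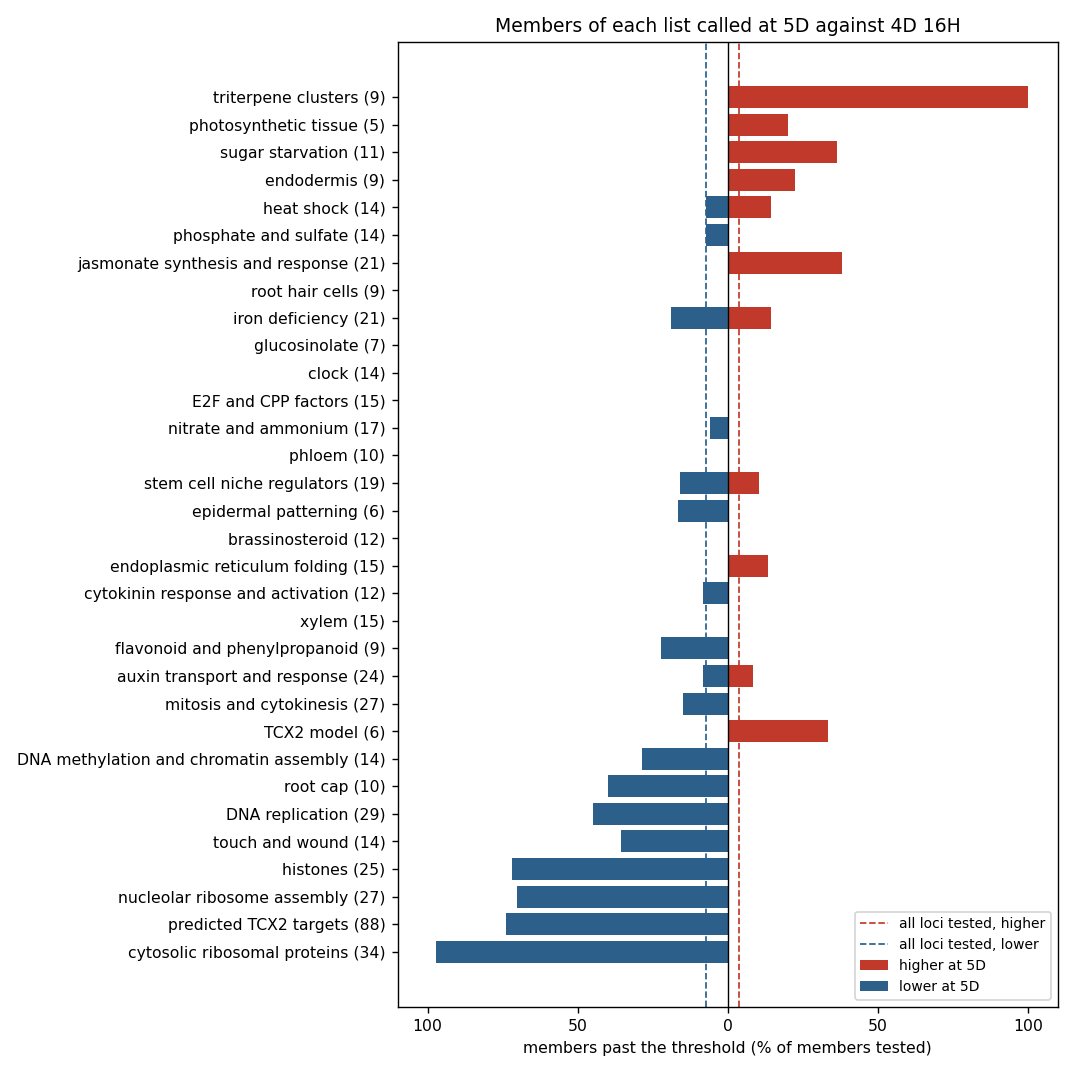
Share of tested members of each gene list and marker list that passed the threshold, higher at 5D to the right in red and lower to the left in blue, with the number tested in brackets. Dashed lines give the shares over all loci tested, 3.56% higher and 7.14% lower, and the lists run from the highest median change at the top to the lowest at the bottom.

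The listed root triterpene genes all rose. These are neighbouring genes on the chromosome that together make a compound, with an oxidosqualene cyclase forming the ring system and cytochromes P450 and an acyltransferase decorating it. Of 9 genes tested in 3 such clusters, 9 rose, with a median log2 fold change of 0.84, and 7 to 9 did so with 1 library left out. In the thalianol cluster on chromosome 5 the cyclase THAS1 (AT5G48010, chr5:19456837-19461706 in TAIR10.1) had 235, 250.4 and 269.9 FPKM at 5D, against 192, 147 and 122 FPKM at 4D 16H (log2 fold change 0.73, SE 0.12, adjusted p = 0.00506). Its neighbour CYP705A5 (AT5G47990, chr5:19434758-19436749) had 347, 382 and 369.5 FPKM at 5D, against 247, 199.9 and 162 FPKM at 4D 16H (log2 fold change 0.87, SE 0.13, adjusted p = 0.00404). CYP708A2 (log2 fold change 0.68, adjusted p = 0.00864) and the acyltransferase gene THAA (log2 fold change 0.84, adjusted p = 0.0133) rose as well. In all 4 the lowest 5D library was above the highest 4D 16H library. In the marneral cluster of the same chromosome (chr5:17053453-17058245 for MRN1), MRN1 had the largest estimate of the list, and CYP705A12 (log2 fold change 0.80, adjusted p = 0.00584) and CYP71A16 (log2 fold change 0.66, adjusted p = 0.00649) rose with it. On chromosome 4, CYP705A1 (AT4G15330, chr4:8751320-8753297) had 32.1, 35.3 and 44.8 FPKM at 5D, against 17.5, 18 and 11.9 FPKM at 4D 16H (log2 fold change 1.2, SE 0.19, adjusted p = 0.00497). The adjacent cyclase gene PEN1 (AT4G15340) had a mean of 30.4 ± 2.58 FPKM at 5D, against 16.8 ± 3.74 FPKM at 4D 16H (SD, n = 3 each; log2 fold change 0.84, adjusted p = 0.0161). Within 4D 16H, replicate 3 was the lowest library in 8 of the 9 genes, and the mean log2(FPKM + 1) over the list was 6.49, 6.54 and 6.76 at 5D, against 5.96, 5.76 and 5.34 at 4D 16H.

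Jasmonate is an oxylipin hormone of wounding and growth restraint. JAZ proteins repress the response and are themselves induced by it. Of 21 genes of jasmonate synthesis and response tested, 8 rose and 0 fell, with a median of 0.24. JAZ10 (AT5G13220) had 293, 234 and 279.9 FPKM at 5D, against 130.0, 182 and 158 FPKM at 4D 16H (log2 fold change 0.78, SE 0.16, adjusted p = 0.00779). JAZ7 (AT2G34600) had 14.3, 12.7 and 17.5 FPKM at 5D, against 2.77, 7.51 and 4.87 FPKM at 4D 16H (log2 fold change 1.45, SE 0.35, adjusted p = 0.0171). JAZ9 (log2 fold change 0.78, adjusted p = 0.0198), JAZ6 (log2 fold change 0.54, adjusted p = 0.0241), JAZ2 (log2 fold change 0.43, adjusted p = 0.0271) and JAZ12 (log2 fold change 0.27, adjusted p = 0.0474) rose too, so that 6 of the 8 were repressor genes. The other 2 were AOC2 (AT3G25770), an allene oxide cyclase of jasmonate synthesis, with 195, 159.7 and 156 FPKM at 5D, against 73.3, 99.3 and 119 FPKM at 4D 16H (log2 fold change 0.82, SE 0.19, adjusted p = 0.0148), and JAR1. JAR1 (AT2G46370), which joins jasmonate to isoleucine, had 272, 268 and 256 FPKM at 5D, against 191, 197 and 174 FPKM at 4D 16H (log2 fold change 0.50, SE 0.13, adjusted p = 0.0256). For these 8 genes no 5D library was below any 4D 16H library, and nearly all called loci were likewise without overlap. AOC2 has close copies, of which AOC1 had a mean of 76.6 ± 9.57 FPKM at 5D, against 53.2 ± 9.67 FPKM at 4D 16H (SD, n = 3 each; log2 fold change 0.53, adjusted p = 0.0653). JAZ8 had 79.8, 67.2 and 69.1 FPKM at 5D, against 17.62, 51.7 and 61.4 FPKM at 4D 16H (adjusted p = 0.117), where 4D 16H replicate 1 was far below the rest. The number of calls depended on the libraries. Without 4D 16H replicate 1, 1 member was called higher, with any other library left out 2 to 6 were, and without 4D 16H replicate 3, 2 members were called lower.

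Of 11 tested genes linked to low sugar, 4 rose, 0 fell and 7 did not pass, with a median of 0.63, and 4 to 5 were called with each library left out. TPS10 (AT1G60140, chr1:22176934-22181740 in TAIR10.1), TPS8 (AT1G70290) and TPS9 (AT1G23870) encode class II trehalose phosphate synthase proteins, whose transcripts are known to fall when sugar is plentiful. TPS10 had 49.3, 57.4 and 51.5 FPKM at 5D, against 26, 29.7 and 26.7 FPKM at 4D 16H (log2 fold change 0.92, SE 0.12, adjusted p = 0.00328). TPS8 had 107, 112.5 and 97.3 FPKM at 5D, against 62.4, 77.2 and 61.8 FPKM at 4D 16H (log2 fold change 0.65, SE 0.09, adjusted p = 0.00404). TPS9 had 54.7, 65.8 and 55.7 FPKM at 5D, against 36.6, 39.2 and 36.7 FPKM at 4D 16H (log2 fold change 0.63, SE 0.09, adjusted p = 0.00404). BGAL4 (AT5G56870), a beta-galactosidase gene, had 130.3, 144.1 and 166 FPKM at 5D, against 77.6, 71 and 51.8 FPKM at 4D 16H (log2 fold change 1.14, SE 0.18, adjusted p = 0.00497). The 3 libraries of each group lay close together in all 4 genes, apart from 4D 16H replicate 3 of BGAL4, which was lowest. ASN1, an asparagine synthetase gene of carbon shortage, had a mean of 39.7 ± 3.67 FPKM at 5D, against 19.1 ± 5.21 FPKM at 4D 16H (SD, n = 3 each; log2 fold change 1.05, adjusted p = 0.13). KIN10, the kinase subunit of SnRK1, had a mean of 26.1 ± 0.774 FPKM at 5D, against 28.1 ± 2.56 FPKM at 4D 16H (SD, n = 3 each; log2 fold change -0.10, adjusted p = 0.509). Neither passed.

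Iron genes moved in both directions. Of 31 genes listed 21 were tested, 3 rose (14.3%) and 4 fell (19%), beside 3.56% and 7.14% of all loci tested. The median log2 fold change was 0.06, with 12 higher and 9 lower estimates. Those that fell were BHLH39, IRT1, OPT3 and NAS4. IRT1 (AT4G19690), the main iron uptake transporter of the root, had 0.304, 0.521 and 0.702 FPKM at 5D, against 1.73, 3.05 and 2.57 FPKM at 4D 16H (log2 fold change -1.18, SE 0.19, adjusted p = 0.00497). OPT3 (AT4G16370), a phloem iron transporter, had 5.58, 7.08 and 6.44 FPKM at 5D, against 16.8, 12.8 and 17 FPKM at 4D 16H (log2 fold change -1.16, SE 0.32, adjusted p = 0.0287). NAS4, a nicotianamine synthase, had a mean of 0.87 ± 0.548 FPKM at 5D, against 2.81 ± 0.561 FPKM at 4D 16H (SD, n = 3 each; log2 fold change -1.06, adjusted p = 0.0289). Those that rose were FER1, BTS and F6'H1. FER1 (AT5G01600), a ferritin that stores iron, had 272, 227 and 254 FPKM at 5D, against 123, 139 and 92.6 FPKM at 4D 16H (log2 fold change 1.09, SE 0.16, adjusted p = 0.00404). BTS (AT3G18290), an E3 ligase that restrains the deficiency response, had 40.1, 45.1 and 37 FPKM at 5D, against 26.1, 28.1 and 31.1 FPKM at 4D 16H (log2 fold change 0.50, SE 0.12, adjusted p = 0.0149). F6'H1 (AT3G13610), which makes iron-binding coumarins and is itself induced in deficiency, rose (log2 fold change 0.63, adjusted p = 0.04). The groups did not overlap for any of these 7 genes, as at nearly all called loci. FIT, the central factor of the response, had a mean of 90.12 ± 13.2 FPKM at 5D, against 119.8 ± 4.76 FPKM at 4D 16H (SD, n = 3 each; log2 fold change -0.42, adjusted p = 0.0793), and 10 genes of the list, such as BHLH38, BHLH100 and the IMA peptide genes, were under 1 FPKM on average. With 1 library left out 1 to 3 members were called higher and 2 to 4 lower, and 5 were called higher under upper quartile scaling or quantile normalization.

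Early response genes to touch and wounding are also known to be induced by cell wall digestion. Of 14 tested, 5 fell, 0 rose, 9 did not pass and all 14 had a lower estimate, with a median of -0.57. ERF6 (AT4G17490), an ethylene response factor, had 213, 201 and 231 FPKM at 5D, against 395, 373 and 427 FPKM at 4D 16H (log2 fold change -0.89, SE 0.20, adjusted p = 0.0119). ZAT10 (AT1G27730), a zinc finger repressor, had 158, 151 and 175 FPKM at 5D, against 346, 298 and 284 FPKM at 4D 16H (log2 fold change -0.93, SE 0.21, adjusted p = 0.0141). TCH4 (AT5G57560), a cell wall enzyme gene named for its response to touch, had 499, 406 and 426 FPKM at 5D, against 748, 715 and 745 FPKM at 4D 16H (log2 fold change -0.73, SE 0.21, adjusted p = 0.0332). TCH2 (log2 fold change -0.58, adjusted p = 0.0124) and ERF1A (log2 fold change -0.56, adjusted p = 0.0454) completed the 5. All 5D libraries were below all 4D 16H libraries in these genes, and nearly all called loci were likewise without overlap. Without 5D replicate 2, 0 of the 5 were called by limma, and 3 were called under upper quartile scaling. Summed over the list the level was 2957 to 3259 FPKM at 5D, against 4485 to 4628 FPKM at 4D 16H.

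Of 14 heat shock genes, 2 rose (14.3%) and 1 fell (7.14%), beside 3.56% and 7.14% of all loci tested. HSP90-1 (AT5G52640), the inducible cytosolic HSP90, had 23.7, 22 and 28.7 FPKM at 5D, against 5.88, 8.04 and 11.2 FPKM at 4D 16H (log2 fold change 1.49, SE 0.44, adjusted p = 0.0427). HSFB1 (AT4G36990), a heat shock factor of the repressor class, had 314, 285 and 362 FPKM at 5D, against 189, 233 and 191 FPKM at 4D 16H (log2 fold change 0.65, SE 0.15, adjusted p = 0.0148). The constitutive chaperone HSP70-1 (AT5G02500) fell, with 320.3, 413 and 361 FPKM at 5D, against 519.6, 464 and 445 FPKM at 4D 16H (log2 fold change -0.39, SE 0.10, adjusted p = 0.0264). In HSP90-1 the 4D 16H libraries were spread widely, and the call was lost under 7 of 16 alternatives. Without 4D 16H replicate 1 or without 5D replicate 3, 0 heat shock genes were called in limma. HSP101 had a mean of 35.2 ± 4.45 FPKM at 5D, against 15.3 ± 4.45 FPKM at 4D 16H (SD, n = 3 each; log2 fold change 1.19, adjusted p = 0.0681). In the endoplasmic reticulum list of 15 genes, BIP3 (AT1G09080), a chaperone gene switched on by unfolded protein, had 15.2, 15.3 and 13.2 FPKM at 5D, against 7.13, 10.5 and 8.36 FPKM at 4D 16H (log2 fold change 0.70, SE 0.13, adjusted p = 0.00637). IRE1A (AT2G17520), a sensor of unfolded protein, had 26.1, 26.4 and 27.4 FPKM at 5D, against 17.7, 20.15 and 19.7 FPKM at 4D 16H (log2 fold change 0.45, SE 0.10, adjusted p = 0.00965). Both had every 5D library above every 4D 16H library and were called in every fit with 1 library left out. They were 13.3% of the list, beside 3.56% of all loci tested, and 0 genes of the list fell. BIP1 and BIP2 had log2 fold changes of -0.29 and -0.38 that did not pass.

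Of the tested auxin, cytokinin and brassinosteroid genes 8.33%, 0% and 0% rose, against 3.56% of all loci tested. The shares that fell were 8.33%, 8.33% and 0%, against 7.14% of all loci tested. Of 24 auxin genes, IAA13 (log2 fold change 0.64, adjusted p = 0.0248), a repressor of auxin response, and DAO1 (log2 fold change 0.39, adjusted p = 0.0415), which oxidises auxin, rose, and PIN2 (AT5G57090), the efflux carrier of the epidermis and cortex, and TAA1 (AT1G70560), of auxin synthesis, fell. PIN2 had 73.6, 86.2 and 90.11 FPKM at 5D, against 108, 108 and 117 FPKM at 4D 16H (log2 fold change -0.41, SE 0.11, adjusted p = 0.0235). TAA1 had 21.2, 19.4 and 24.1 FPKM at 5D, against 40.2, 33.2 and 27.7 FPKM at 4D 16H (log2 fold change -0.61, SE 0.17, adjusted p = 0.0289). The groups did not overlap for PIN2 or TAA1, and 4D 16H replicate 1 was highest for TAA1. With 1 library left out 0 to 2 auxin genes were called higher and 0 to 4 lower. Of 12 cytokinin genes tested, ARR4, a response regulator, fell, with 33.1, 33.4 and 35 FPKM at 5D, against 52.4, 44.8 and 49.9 FPKM at 4D 16H (log2 fold change -0.52, SE 0.11, adjusted p = 0.0106), and it was called with each library left out. ARR7, another response regulator, had 1.15, 0.747 and 0.765 FPKM at 5D, against 1.23, 3.07 and 6.94 FPKM at 4D 16H (adjusted p = 0.117), with 4D 16H replicate 3 well above the others. Of 12 brassinosteroid genes 0 were called in limma, 2 had an unadjusted p under 0.05, and 1 was called without 4D 16H replicate 3. The closest was BR6OX2, of brassinosteroid synthesis (log2 fold change -0.46, adjusted p = 0.0504).

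In nutrition and metabolism, 1 of 17 nitrate and ammonium genes fell (5.88%), beside 7.14% of all loci tested. It was RFNR2, a root ferredoxin reductase (log2 fold change -0.34, adjusted p = 0.0456), and it did not pass under upper quartile scaling or quantile normalization. Of 14 phosphate and sulfate genes 1 fell (7.14%), the same share as over all loci tested. It was MGD3 (AT2G11810), which makes galactolipid when phosphate is short, with 6.34, 5.28 and 6.13 FPKM at 5D, against 12.5, 10.8 and 14.2 FPKM at 4D 16H (log2 fold change -0.96, SE 0.17, adjusted p = 0.00533). The sulfate assimilation gene APR1 had 602, 603 and 581.8 FPKM at 5D, against 276, 399 and 521 FPKM at 4D 16H (adjusted p = 0.179), with a spread of nearly 2-fold among the 4D 16H libraries. Of 9 flavonoid and phenylpropanoid genes 2 fell (22.2%), FLS1 and CHI, and 0 to 2 were called with 1 library left out. FLS1, flavonol synthase, had 66.3, 70.2 and 66.3 FPKM at 5D, against 115.1, 89.7 and 87.9 FPKM at 4D 16H (log2 fold change -0.51, SE 0.13, adjusted p = 0.0211). CHI, chalcone isomerase, had a log2 fold change of -0.55 (adjusted p = 0.0444). Chalcone synthase, CHS, had a mean of 294 ± 41.9 FPKM at 5D, against 359 ± 75.4 FPKM at 4D 16H (SD, n = 3 each; log2 fold change -0.28, adjusted p = 0.257). Of 7 glucosinolate genes tested 0 passed in limma and 2 had an unadjusted p under 0.05. Of 14 clock genes 0 passed in limma, 4 had an unadjusted p under 0.05, and the median was 0.02, with 1 called higher under upper quartile scaling or quantile normalization. LHY, a morning gene, had 2.11, 2.36 and 2.52 FPKM at 5D, against 3.2, 3.69 and 1.67 FPKM at 4D 16H. ELF4, an evening gene, had 84.2, 78.8 and 76 FPKM at 5D, against 77.6, 79.5 and 86.4 FPKM at 4D 16H, and the groups overlapped for both genes.

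Markers of the cell types that the sort could hold also moved. Of 10 root cap genes 4 fell (40%, beside 7.14% of all loci tested) and 0 rose. All 10 had a lower estimate, with a median of -0.50. SMB (AT1G79580), a factor of lateral root cap and columella maturation, had 25.8, 25.2 and 26.6 FPKM at 5D, against 35.5, 36.6 and 37.9 FPKM at 4D 16H (log2 fold change -0.49, SE 0.14, adjusted p = 0.0334). FEZ (AT1G26870), which drives the divisions of root cap stem cells, had 3.65, 2.99 and 2.89 FPKM at 5D, against 7.01, 6.75 and 9.7 FPKM at 4D 16H (log2 fold change -1.07, SE 0.30, adjusted p = 0.0323). BRN1 (log2 fold change -0.52, adjusted p = 0.022) and the cell death protease PASPA3 (log2 fold change -0.69, adjusted p = 0.00839) fell as well. The 5D libraries were below all 4D 16H libraries in these 4 genes, and nearly all called loci were likewise without overlap. The list summed to 881 to 1127 FPKM at 5D, against 1147 to 1733 FPKM at 4D 16H, and 4D 16H replicate 3 was the highest library. With 1 library of the step left out, 1 to 3 members of the list were called lower. SMB and FEZ were called in none of those fits. Of 9 endodermis genes 2 rose, CASP5 and ESB1 (22.2%, beside 3.56% of all loci tested). CASP5 (AT5G15290), a scaffold of the Casparian strip, had 165, 149 and 205 FPKM at 5D, against 73.9, 95.5 and 63.4 FPKM at 4D 16H (log2 fold change 1.16, SE 0.29, adjusted p = 0.0195). ESB1 (AT2G28670), needed for its lignin, had 439, 536 and 619 FPKM at 5D, against 281, 265 and 245 FPKM at 4D 16H (log2 fold change 1.00, SE 0.26, adjusted p = 0.0262). CASP1 had a mean of 728 ± 145 FPKM at 5D, against 428 ± 29.7 FPKM at 4D 16H (SD, n = 3 each; log2 fold change 0.75, adjusted p = 0.0636). MYB36, the factor that turns these genes on, had a mean of 88.5 ± 5.15 FPKM at 5D, against 90.8 ± 11.3 FPKM at 4D 16H (SD, n = 3 each; log2 fold change -0.03, adjusted p = 0.885). Neither passed. The endodermis list summed to 2286 to 3009.8 FPKM at 5D, against 1393 to 1688 FPKM at 4D 16H, and 0 members were called in limma without 5D replicate 3, without 4D 16H replicate 1 or without 4D 16H replicate 3.

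Of 6 epidermal patterning genes 1 fell (16.7%), beside 7.14% of all loci tested. It was the non-hair factor WER (AT5G14750), with 34.6, 25.7 and 25.5 FPKM at 5D, against 40.5, 40.01 and 57.5 FPKM at 4D 16H (log2 fold change -0.66, SE 0.17, adjusted p = 0.0209). The 4D 16H libraries were all above those at 5D. Of 9 root hair, 15 xylem and 10 phloem genes tested, 0 passed in limma and 1, 5 and 1 had an unadjusted p under 0.05. Their sums were 906 to 1579 FPKM at 5D, against 972 to 1263 FPKM at 4D 16H for root hairs, 337 to 541 FPKM at 5D, against 252 to 462 FPKM at 4D 16H for xylem and 48.6 to 67.9 FPKM at 5D, against 43.4 to 59.3 FPKM at 4D 16H for phloem, which overlap. The genes of photosynthetic tissue were low, with sums of 26.2 to 37.9 FPKM at 5D, against 11.7 to 26.7 FPKM at 4D 16H, and RCA, rubisco activase, rose (log2 fold change 0.64, adjusted p = 0.0316), a call lost without 5D replicate 2 or 3 and without 4D 16H replicate 2 or 3, while RBCS1A, LHCB1.1 and LHCB2.1 were under 1 FPKM on average. No marker of any list was at 0 in all 6 libraries. The part of these shifts in cell type markers in the ribosomal, replication, triterpene and other results was not tested.

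**Figure D4:**
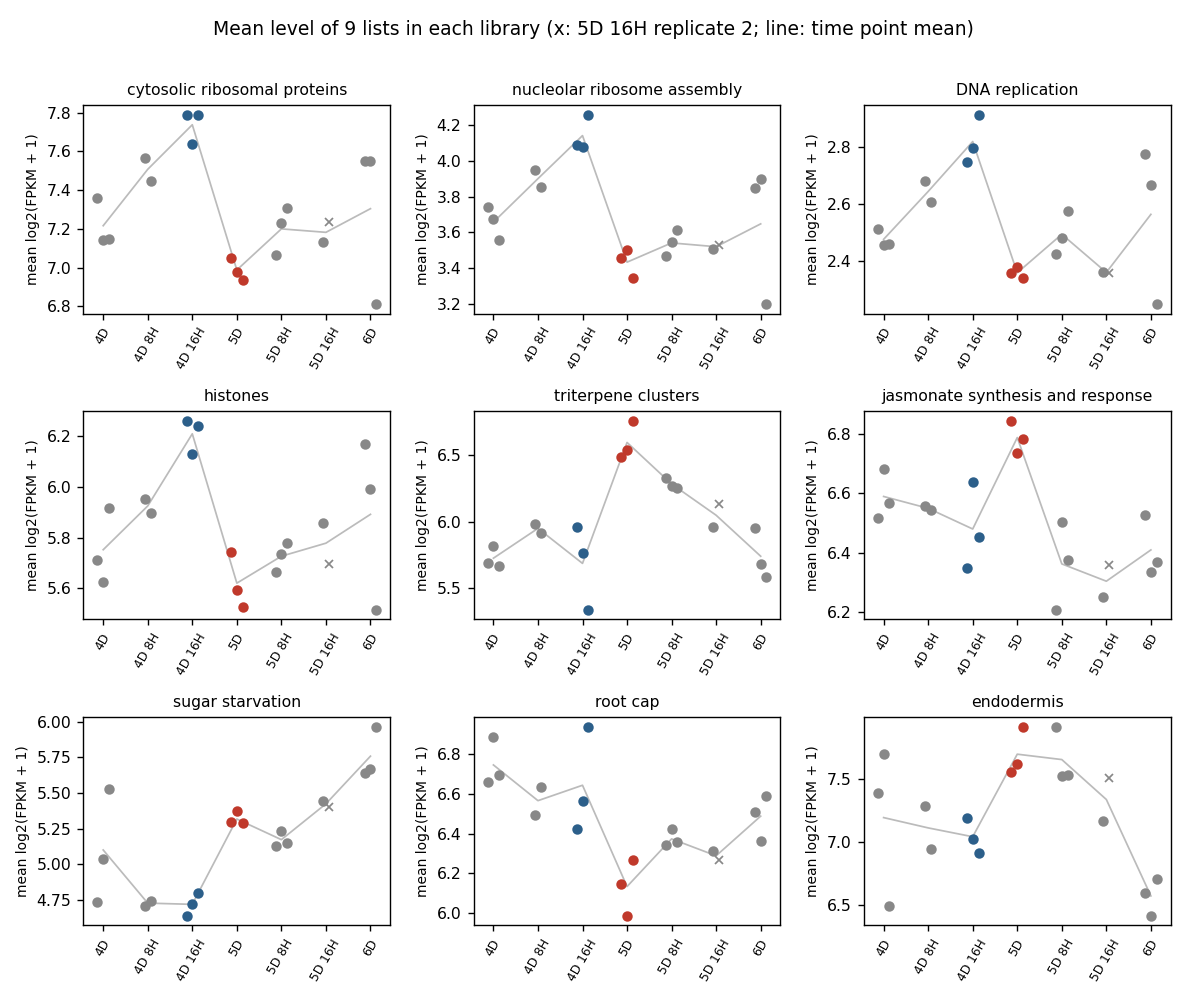
Mean log2(FPKM + 1) over the tested members of 9 lists in each of the 19 libraries, by time point from 4D to 6D. Points are libraries, with 4D 16H in blue, 5D in red, 5D 16H replicate 2 as a cross and the line through the time point means. In the first 4 panels the 3 libraries at 4D 16H are the highest or among the highest of the series and the 5D libraries lie below them.

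The same passage of 8 h to a full day of age, 5D 16H to 6D, was measured a day later in other libraries, 3 at 6D and 2 at 5D 16H. The difference between the 2 steps passed the threshold at 2930 loci, 16.2% of those tested. The step to 5D is a term of this difference, so genes chosen for a large change in it are more likely to pass. Without the outlying 5D 16H replicate 2 the difference passed at 1324 loci, 7.32% of those tested, and without 6D replicate 3, whose ribosomal and replication levels lay well below those of the other 6D libraries, 4106 loci passed. FIB2 had a log2 change of 0.68 in the later step without 5D 16H replicate 2, against -1.53 in the step to 5D. For WOX5 the later step, with all libraries, was -0.57, against 1.53 in the step to 5D. Without 5D 16H replicate 2, as for FIB2, the ribosomal protein list had a median of 0.13 in the later step. The replication list had 0.15, the triterpene list -0.22 and the jasmonate list 0.06. Every value of the later step without 5D 16H replicate 2 rests on a single library at 5D 16H, which is assumed to vary like the others.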

How the data were processed

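RNA of GFP-negative root tip cells was measured in 19 libraries, and the 3 at 5D were compared with the 3 at 4D 16H, with groups and replicate numbers given by the titles in the labels. The table the authors deposited holds FPKM, made from single-end reads by means of Bowtie, the Tuxedo tools and Rsubread, while the submitters' processing notes name TopHat, Cufflinks and the TAIR10 build. Versions, the use of strand and the handling of reads with several matches are not given in the sources used here, so loci that overlap another on the opposite strand, such as TCX2, FER1, BGAL4 and CASP5, are uncertain. The labels name a stranded mRNA kit, and the methods of the study refer to another preparation. FPKM holds no counts, so depth was only estimated, and its precision differs between libraries.

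Of 33201 loci, 18087 with a mean of 1 FPKM or more were tested on log2(FPKM + 1) values, a scale that understates fold changes of low genes, with limma (version 3.58.1, in R 4.3.3). All 19 libraries entered 1 fit with a mean for each time point and a trend in the variance. Benjamini-Hochberg adjustment covered all tested loci, and the p-values measure the spread between these samples, which may in part be technical. Fold changes are 5D minus 4D 16H on the log2 scale, and all adjusted p-values given are from limma. The difference between this step and that from 5D 16H to 6D was tested in the same fit. Named genes were the TCX2 model and niche genes, the 12 called loci with the largest change in each direction whose libraries did not overlap and whose transcript is at least 300 nucleotides long, and list members. The members and lists were chosen with earlier results of these data known. Symbols, coordinates and promoters came from RefSeq assembly TAIR10.1, which matched 18010 of the tested loci. The telobox and site II letters overlapped in 1 window, and the E2F letters overlapped neither. Other settings tried were upper quartile scaling, quantile normalization, a pseudocount of 0.1, a stricter filter or none, a replicate block and no trend. Also tried were a fit of only the time points compared, a 2-fold minimum and leaving out each library of those time points. For the step these were 5D and 4D 16H, and for the difference also 5D 16H and 6D. Leaving out 5D 16H replicate 2 for the step to 5D and sample weights were added after seeing the data.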

Additional observations from a re-analysis of the deposited data

Results flagged for a closer look

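The change over 16 h to a full day was set against the same change a day later, as the step from 5D 16H to 6D minus the step from 4D 16H to 5D, and 2930 loci passed the limma test of this difference. All genes here but FLP were chosen for their change in the step to 5D, which is a term of the difference. Among the loci with the largest increases at 5D it was -2.69 for DR4, -2.10 for WOX5, -2.07 for MRN1, -1.93 for DIN11, -1.90 for NAC047, -1.83 for GA20OX5, -1.70 for MLP329 and -1.60 for AT3G27884 on the log2 scale. Each of these 8 genes had a lower value at 6D than at 5D 16H on average, with log2 changes of -0.81 to -0.11. Among the loci with the largest decreases at 5D the difference was 3.72 for AT3G15534, 2.05 for AT5G50740, 1.92 for FIB2, 1.90 for CBF5, 1.77 for AT1G56680 and 1.70 for AT1G34500. For FLP, a member of the TCX2 model that did not pass in the step to 5D, it was 1.03 (adjusted p = 0.0446).

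5D 16H replicate 2 is shallow, and without it the limma adjusted p of the difference was 0.247 for FLP, 0.0881 for GA20OX5, 0.0839 for MLP329 and 0.0766 for AT3G15534, which no longer passed. For the other 11 genes it lay between 0.00154 for AT5G50740 and 0.0461 for DR4.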

How the results depend on the processing

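The count of 1935 loci was 141 with a 2-fold minimum and 798 to 2633 when 1 library was left out, lowest without 5D replicate 2 and highest without 5D 16H replicate 2. With sample weights, which gave 4D 16H replicate 2 a weight of 7.94 against 0.27 to 2.23 in the other libraries, it was 7098, with 2264 higher and 4834 lower. The 643 loci higher at 5D were 283 to 840 with 1 library left out and 1057 under quantile normalization, and the 1292 lower were 501 to 1793. The count of 2930 for the difference between the steps was 1324 to 5268 with 1 library left out, lowest without 5D 16H replicate 2 and highest without 5D 16H replicate 1, and 1168 in a fit of only the 4 time points compared. The causes were not tested. No named gene carried through the alternatives changed sign. The medians of the E2F and CPP, phloem, root hair, glucosinolate and clock lists, of -0.08 to 0.07, did so under 1 or more of them, for E2F and CPP factors at 0.02 under upper quartile scaling and 0.07 under quantile normalization. Of the loci where the steps differed 57.9% had a positive difference, against 40.9% in the fit of only the 4 time points, 48.7% under quantile normalization and 48.6% without 5D 16H replicate 2. With the replicate number as a block 1972 loci passed for the step and 2769 for the difference, but libraries of the same number did not deviate together (correlations of -0.087 to -0.08), so they share only a number and were not treated as paired. For named genes, 2012 values kept their direction and their side of the threshold across the alternatives, 279 fell short of it and 9 passed only there, and for lists 141 counts and 39 medians moved. FPKM and uneven depth limit what can be said of genes near 1 FPKM.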

Other observations

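Several genes that break jasmonate down rose. This list and the others in these paragraphs were chosen after values were seen, so their counts are descriptions. Of 8 tested genes of jasmonate turnover 5 rose and 0 fell, against 3.56% of all loci higher, with a median of 0.82. IAR3 (AT1G51760), which splits jasmonate from its amino acid conjugate, had 365, 330.1 and 357 FPKM at 5D, against 105, 179 and 169.9 FPKM at 4D 16H (log2 fold change 1.25, SE 0.23, adjusted p = 0.00584), and JOX4 (AT2G38240), which hydroxylates jasmonate, had 329.7, 309.5 and 382 FPKM at 5D, against 118, 145 and 142 FPKM at 4D 16H (log2 fold change 1.33, SE 0.25, adjusted p = 0.00596). CYP94B3, which oxidises the active conjugate, rose as well (log2 fold change 0.91, adjusted p = 0.00764). In all 8 genes the 5D libraries were above those at 4D 16H, against 12.3% of all loci tested. With 1 library left out 3 to 5 were called.

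Of 14 abscisic acid response genes tested 10 rose and 0 fell, with a median of 0.58. ABI1 (AT4G26080), a phosphatase that damps the response, had 359, 326 and 326 FPKM at 5D, against 194, 213 and 248 FPKM at 4D 16H (log2 fold change 0.63, SE 0.12, adjusted p = 0.0064), and HAI1 (AT5G59220), a related phosphatase, had 117, 116 and 112.3 FPKM at 5D, against 75.5, 78.2 and 64.8 FPKM at 4D 16H (log2 fold change 0.66, SE 0.12, adjusted p = 0.00608). ATHB12 (log2 fold change 1.05, adjusted p = 0.0315) and MAPKKK17 (log2 fold change 1.05, adjusted p = 0.013) rose too, while the factor genes ABF2 and ABF3 had log2 fold changes of -0.03 and -0.01 and did not pass. The count fell to 3 without 5D replicate 1 or without 5D replicate 2. Of 6 vacuolar aquaporin genes 3 rose, and TIP2;2 (AT4G17340) had 901, 821 and 963 FPKM at 5D, against 603, 538 and 372 FPKM at 4D 16H (log2 fold change 0.85, SE 0.16, adjusted p = 0.00637), with the 5D libraries above the others.

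All 9 subunit genes of the CCT chaperonin, which folds tubulin and actin, had lower estimates at 5D, and 8 fell, with a median of -0.63. CCT8 (AT3G03960) had 36, 38.3 and 37.9 FPKM at 5D, against 63.3, 61.2 and 59.6 FPKM at 4D 16H (log2 fold change -0.70, SE 0.15, adjusted p = 0.00908), and 2 to 5 of the 9 were called with 1 library left out. Among loci grouped by annotated product, 8 of 37 translation initiation factors, 6 of 30 elongation factors, 5 of 50 tRNA synthetases and 11 of 58 RNA helicases fell, beside 7.14% of all loci, and 0, 1, 1 and 0 of them rose. Of 435 transporters 23 rose (5.29%) and 7 fell (1.61%), and of 108 cytochromes P450 8 rose (7.41%) and 4 fell (3.7%). Of 328 protein kinases 11 rose (3.35%) and 14 fell (4.27%). Over all loci tested 3.56% rose and 7.14% fell.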
